A study of Mus musculus with 10 samples.

Results

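The peaks described here are the deposited PRDM14 peaks around 8 genes of the pluripotency network of mouse embryonic stem (ES) cells. The genes are Pou5f1, Sox2, Nanog, Klf2, Klf4, Klf5, Esrrb and Tbx3. A peak was taken as a member when its peak position lay within 100 kb of the span of 1 of these genes on the mm9 build. This gave 17 of the 3608 deposited peaks, at 7 of the 8 genes. They come from chromatin immunoprecipitation with sequencing (ChIP-seq) of Prdm14-/- ES cells of strain C57BL/6, grown with LIF and serum, that had been rescued with a fusion of an AVI tag, EGFP and PRDM14 (AGP14) and were precipitated with an antibody against GFP. PRDM14 was thus read through a tagged protein put back into knockout cells, and its amount against that in wild-type cells was not measured here. The series holds 10 libraries in 10 groups of 1, and the other 9 were not analysed here. Among them is the GFP immunoprecipitation from Prdm14-/- cells rescued with EGFP alone. Whether any of the peaks also appear in that library was not tested. There was no replicate, so no value below has an error between samples, no test between samples was possible, and the read depth is unknown.

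PRDM14 is a zinc finger protein with a PR domain that is found in pluripotent cells and primordial germ cells, and it is known for keeping mouse ES cells in the naive state. That state is held by a network of transcription factors that bind near each other's genes. Pou5f1 (OCT4), a POU-domain factor, and Sox2, its HMG-box partner, form its core with the homeodomain factor Nanog. The Krüppel-like factors Klf2, Klf4 and Klf5, the orphan nuclear receptor Esrrb and the T-box factor Tbx3 support self-renewal, and loss of 1 of them can be buffered by the others.

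One peak interval ended within 1 kb of the upstream edge of Pou5f1, and none reached into that gene, so the sequences at the starts of Pou5f1 are shown. RefSeq promoter sequences (GRCm38.p6, 250 bases before to 50 after each start) matched 6 of the 8 genes. They are of another build than the peaks and were not placed on mm9. Whether the sequence of the first Pou5f1 start reaches the peak upstream of the gene was therefore not determined. The sequence GTCTCTA, part of a motif known for PRDM14, was searched on both strands, together with GGTCTC, which overlaps it in the longer motif. Across all 32851 promoters of this length, 3.30% held GTCTCTA and 16.4% held GGTCTC. Of the 6 genes, Pou5f1, Nanog and Esrrb had 2 promoters each, and Sox2, Klf2 and Klf4 had 1 each. Among these promoters, only that of the second Pou5f1 start held GTCTCTA, on the strand of the gene, and none held GGTCTC. Its capitals mark the match, which begins 214 bases before the start. The Pou5f1 sequences read, 5′ to 3′:
Pou5f1 first start, GRCm38.p6 chr17:35505782-35506081, plus strand: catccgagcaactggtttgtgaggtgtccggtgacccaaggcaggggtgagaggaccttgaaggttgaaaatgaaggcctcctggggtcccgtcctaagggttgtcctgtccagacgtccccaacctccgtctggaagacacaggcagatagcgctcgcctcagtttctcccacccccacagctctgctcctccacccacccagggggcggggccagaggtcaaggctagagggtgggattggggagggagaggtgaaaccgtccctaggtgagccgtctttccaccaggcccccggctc
Pou5f1 second start, GRCm38.p6 chr17:35508557-35508856, plus strand: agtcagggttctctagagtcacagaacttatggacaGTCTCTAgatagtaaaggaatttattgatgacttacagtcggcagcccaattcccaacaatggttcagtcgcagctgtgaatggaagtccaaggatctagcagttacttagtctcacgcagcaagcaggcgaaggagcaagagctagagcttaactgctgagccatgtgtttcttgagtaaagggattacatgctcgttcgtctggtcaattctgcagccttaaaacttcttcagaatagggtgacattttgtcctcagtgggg
The second start lies inside the gene, where no peak was called. A match of letters is a description of the sequence and does not show binding.

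PRDM14 peaks were found around 7 of the 8 genes. Pou5f1 had 4 peaks, Sox2 and Klf4 had 3 each, Nanog, Esrrb and Tbx3 had 2 each, Klf5 had 1, and Klf2 had 0. Height is the highest pileup of immunoprecipitated reads in a peak, and its median was 58 reads in the 17 peaks against 83 reads in the other 3591. The authors' enrichment, a ratio that is used here only to describe and rank peaks within this list, had a median of 50.3 against 55.8. Gene spans (to the nearest kb) and peak intervals below are on mm9. The tallest member, near Pou5f1, reached 293 reads, and the most enriched, near Klf4, reached 126.4.

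**Figure D1:**
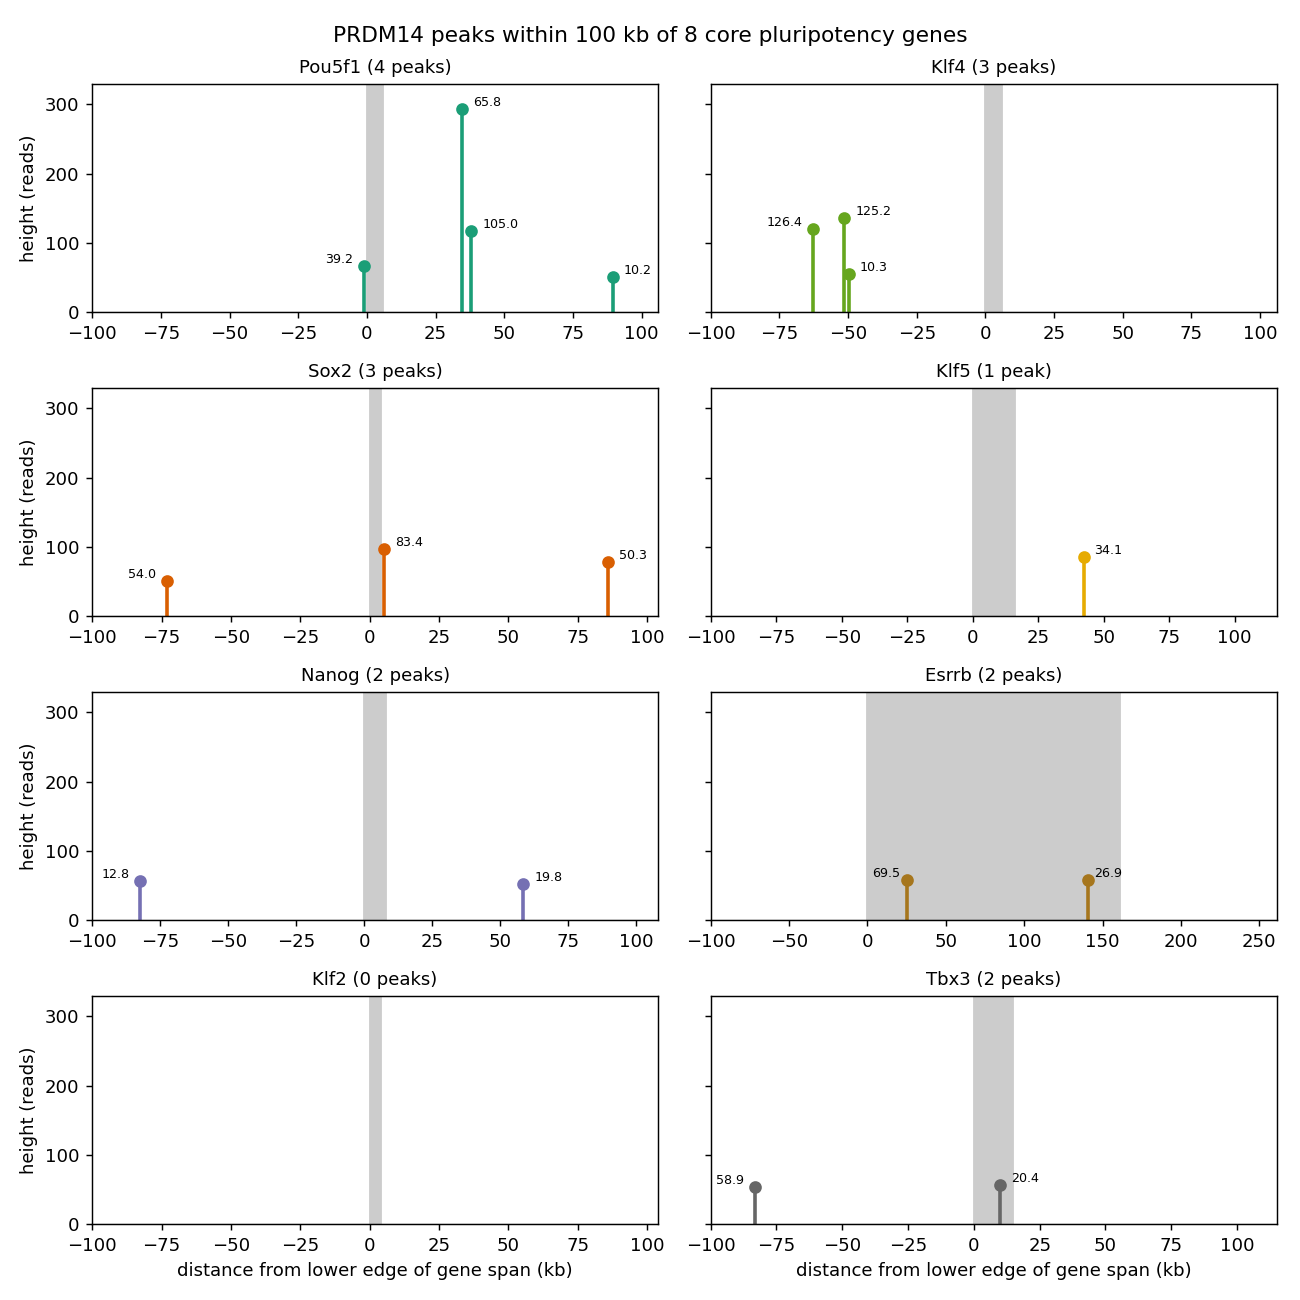
Each panel shows 1 gene, with its span in grey and each PRDM14 peak as a line at its distance in kb from the lower edge of the span; the line's height is the peak's height in reads, and the printed value is the authors' enrichment. Pou5f1 has the tallest peak (293 reads), Esrrb and Tbx3 have peaks inside their spans, and Klf2 has none.

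Pou5f1 (chromosome 17, span 35642 to 35648 kb), which encodes a factor without which pluripotency is lost, had the most peaks. The peak at 35640750 to 35641419 lay about 1 kb upstream of the span, with a height of 66 reads and an enrichment of 39.2. It was the only 1 of the 17 on the upstream side within 10 kb of a gene whose strand was known. Downstream, the peak at 35676140 to 35677299, 29 kb from the span, reached 293 reads and had an enrichment of 65.8. It was at rank 223 of the list by height but at rank 1459 by enrichment. The peak at 35679520 to 35680369, 32 kb from the span, was lower, with 117 reads, and more enriched, with 105.03. These 2 peaks were 3.40 kb apart, and the first was the taller while the second was the more enriched. The fourth peak, at 35731350 to 35731949 and 84 kb downstream, had 51 reads and an enrichment of 10.2, which only 1.44% of all peaks fell below. Next to Pou5f1 in RefSeq order are H2-Q10 on the upstream side and Tcf19 on the downstream side, so the peaks beyond the gene may lie nearer to others than to Pou5f1.

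Sox2 (chromosome 3, span 34548 to 34552 kb) had its tallest peak close to its downstream edge. The peak at 34552440 to 34553459 had a position about 1 kb past the span, with a height of 97 reads and an enrichment of 83.4. Sox2 is known to have regulatory sequence on its downstream side in ES cells, and whether the peak coincides with it was not tested. The other 2 peaks were far away on either side. That at 34474840 to 34475439, 73 kb upstream, had 51 reads and an enrichment of 54.0, and that at 34633620 to 34634419, 82 kb downstream, had 78 reads and an enrichment of 50.3. The positions of the 3 peaks were 78.0 and 80.8 kb apart, so they form no cluster. Beyond the downstream peak the next in the list was 3020 kb from the span.

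Nanog (chromosome 6, span 122657 to 122665 kb), which stabilises the ES cell state and shows variable levels between cells, had only weak and distant peaks. The peak at 122574370 to 122575029, 82 kb upstream, had 57 reads and an enrichment of 12.8. The peak at 122715050 to 122715669, 51 kb downstream, had 52 reads and an enrichment of 19.8. Both enrichments were near the bottom of the list, with 2.61% and 9.06% of all peaks below them. In RefSeq order Nanog is flanked by Dppa3, a gene of naive and germ cells, on the upstream side and by the glucose transporter gene Slc2a3 on the downstream side. To which gene the 2 peaks lie nearest was not tested, since mm9 positions of these neighbours were not used here.

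The 3 Krüppel-like factor genes differed from each other. Klf4 (chromosome 4, span 55540 to 55546 kb, on the minus strand) had the most enriched members, all 3 of its peaks on the downstream side between 50 and 63 kb. The peak at 55476850 to 55477799 had 120 reads and an enrichment of 126.4, and the peak at 55487830 to 55489009 had 136 reads and an enrichment of 125.2. These were ranks 480 and 488 of 3608 by enrichment. The third, at 55490100 to 55490789, lay 1.72 kb from its neighbour and had 55 reads and an enrichment of only 10.3. Distant downstream enhancers of Klf4 are known in ES cells, and whether these peaks coincide with them was not tested. Klf5 (chromosome 14, span 99697 to 99713 kb) had 1 peak, at 99738990 to 99740069, 27 kb above the span, with 86 reads and an enrichment of 34.1. It was the most isolated member, with its nearest other peak 232.4 kb away. Klf2 (chromosome 8, span 74842 to 74846 kb) had no peak within 100 kb. The nearest peaks of the list were 632 kb upstream, with 75 reads and an enrichment of 51.1, and 2658 kb downstream, with 76 reads and an enrichment of 22.3. All but 2 of the 3608 peaks had at least 51 reads, so a lower pileup near Klf2 would not appear in the list.

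Esrrb and Tbx3 were the only genes of the 8 with a peak position inside the span. Esrrb (chromosome 12, span 87702 to 87863 kb) is much longer than the others, and both of its peaks lay within it. That at 87726680 to 87727379, 25 kb from the upstream edge, had 58 reads and an enrichment of 69.5. That at 87842260 to 87842959, 141 kb from the same edge, also had 58 reads but an enrichment of 26.9. The 2 peaks were thus equal in height and differed in enrichment. Tbx3 (chromosome 5, span 120120 to 120135 kb) had a peak inside the span at 120129690 to 120130399, with 57 reads and an enrichment of 20.4. Its second peak, at 120036600 to 120037249, lay 83 kb below the span with 54 reads and an enrichment of 58.9. Exons and introns of mm9 were not used here, so it is not said in which of these the peaks lie.

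By distance, 3 of the 17 peaks lay inside a span, 2 up to 10 kb away, 4 at 10 to 50 kb and 8 at 50 to 100 kb. These classes cover unequal lengths and no share by length was computed, so the counts do not show a preference for distant positions. The 5 nearest peaks belonged to Pou5f1, Sox2, Esrrb and Tbx3. The members farthest inside the limit were the Pou5f1 peak at 84 kb and the Tbx3 peak at 83 kb. Just outside it, the nearest peaks were 179 kb upstream of Sox2, with 58 reads and an enrichment of 20.9, and 190 kb below Klf5, with 176 reads and an enrichment of 53.6. No other gene of the 8 had a further peak between 100 and 200 kb.

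The windows around these genes held more peaks than stretches of the same length did over the whole genome. The 8 windows covered 1.82 Mb and held 9.34 peaks per Mb (95% exact Poisson interval 5.44 to 15.0), against 1.38 per Mb over all 20 chromosomes. On the 8 chromosomes concerned the density ran from 0.993 per Mb on chromosome 14 to 1.82 per Mb on chromosome 5. When the chromosomes were cut into 12188 tiles of 207 kb, the median window length, 20.8% of tiles held at least 1 peak, and 7 of the 8 gene windows did. At least 2 peaks were found in 5.92% of tiles and around 6 of the genes, although the Esrrb window, at 361 kb, is longer, and 11.6% of tiles of that length held at least 2. At least 3 peaks were found in 1.72% of tiles and around Pou5f1, Sox2 and Klf4. At least 4 were found in 0.583% of tiles and around Pou5f1. The tiles also cover stretches without genes or without uniquely mapped reads, and the genes were chosen with results of these data known, so the difference is a description and has no p-value. The Poisson interval covers counting error only. It treats peaks as independent, although 16.2% of all peaks had another peak within 10 kb, so it is likely too narrow.

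**Figure D2:**
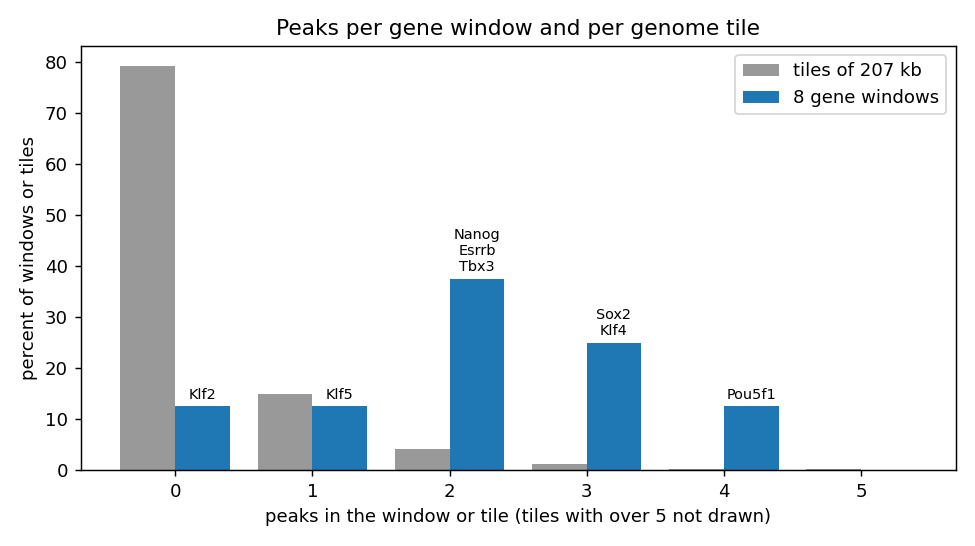
Bars give the percent of 207 kb genome tiles (grey) and of the 8 gene windows (blue) that hold the number of PRDM14 peaks on the x axis, with the genes named above the bars. Most tiles are empty, whereas only the Klf2 window is; the Esrrb window is longer than the tiles.

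The members were also placed by quartiles of the whole list. In the upper quartile of enrichment (at least 86.8), which held 25.0% of all peaks, were 3 of the 17 members (17.6%, 95% Wilson interval 6.19% to 41.0%), namely 2 of Klf4 and 1 of Pou5f1. In the upper quartile of height (at least 133 reads), with 25.3% of all peaks, were 2 of the 17 (11.8%, interval 3.29% to 34.3%), 1 of Pou5f1 and 1 of Klf4. Both intervals include the share of the whole list. In the lower quartile of enrichment (at most 32.1), with 25.0% of all peaks, were 6 of the 17 (35.3%, interval 17.3% to 58.7%). In the lower quartile of height (at most 62 reads), with 26.2% of all peaks, were 9 of the 17 (52.9%, interval 31.0% to 73.8%). This last interval lies above the share of the list, but these lower quartiles were chosen after the values were seen. The 9 were the Pou5f1 peak 84 kb downstream, the Sox2 peak 73 kb upstream, the lowest Klf4 peak and every peak of Nanog, Esrrb and Tbx3. The intervals treat peaks as independent, although members near 1 gene are neighbours.

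**Figure D3:**
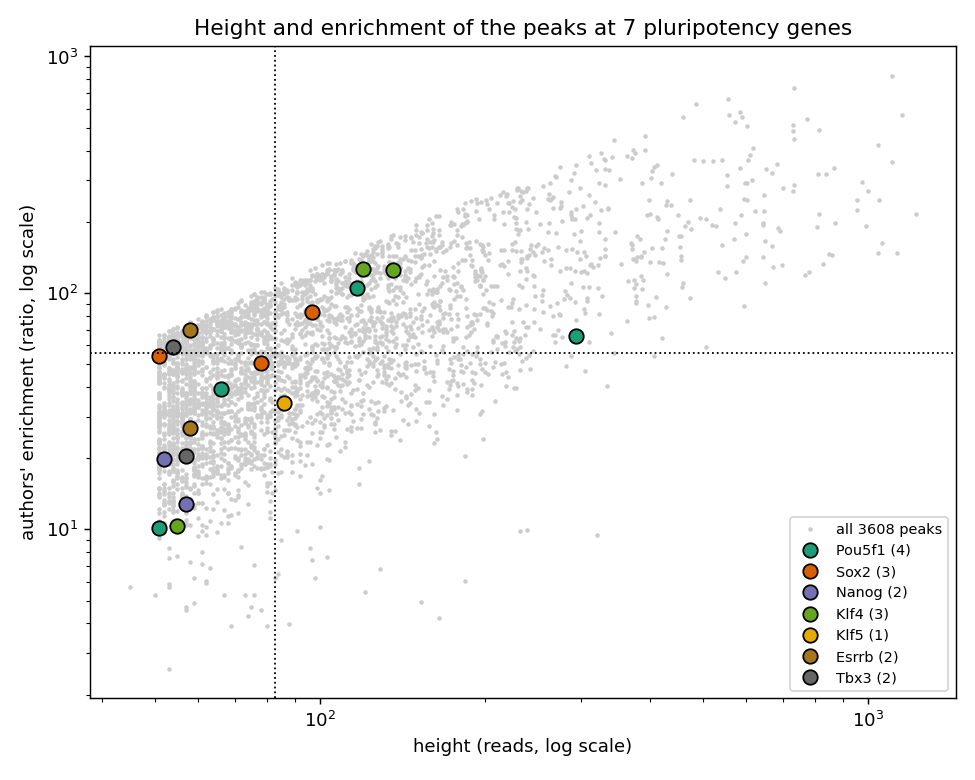
Each grey point is 1 of the 3608 PRDM14 peaks, by height in reads (x axis, log scale) and by the authors' enrichment (y axis, log scale), and coloured points are the 17 members by gene; dotted lines mark the medians of the list. Most members sit left of the median height of 83 reads, and the Pou5f1 peak of 293 reads stands far to the right with an enrichment of 65.8.

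Height and enrichment gave different orders for several members. The upstream Sox2 peak shared the lowest height of the members, 51 reads, with 0.0554% of all peaks lower, but 48.4% of all peaks had a lower enrichment. The distal Tbx3 peak stood above 7.71% of the list by height and 52.7% by enrichment, and the first Esrrb peak above 17.2% and 63.3%. The tallest Pou5f1 peak went the other way, above 93.8% by height and 59.5% by enrichment. This Pou5f1 peak and the 2 strong Klf4 peaks were above the median of the list by both values. So were the Pou5f1 peak of 117 reads and the Sox2 peak beside the gene. Below the median by both were both Nanog peaks, the Pou5f1 peaks 1 kb upstream and 84 kb downstream and the 2 distal Sox2 peaks. The weakest Klf4 peak, the second Esrrb peak and the Tbx3 peak inside the span were also below it by both.

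**Figure D4:**
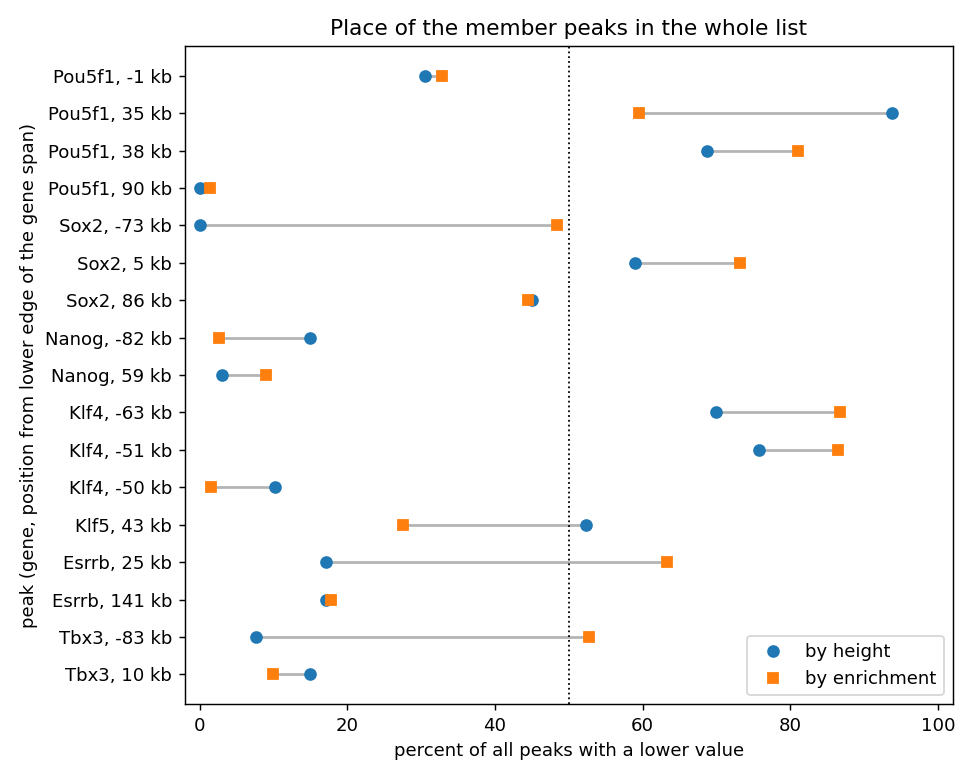
For each of the 17 member peaks, the x axis gives the percent of all 3608 peaks with a lower height (circles) or a lower enrichment (squares), and the y axis names the gene and the peak's position from the lower edge of its span in kb. The 2 marks lie close together for Nanog and far apart for the upstream Sox2 peak (0.0554% and 48.4%).

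Of the 17 members, 4 had a neighbour within 10 kb (23.5%, interval 9.56% to 47.3%), against 16.2% of all peaks, and these were the downstream pair of Pou5f1 and a pair of Klf4. The median distance to the nearest other peak was 78.0 kb in the members and 105.2 kb in the rest of the list. Widths of the members ran from 599 to 1179 bp with a median of 699 bp, against 809 bp in the rest.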

How the data were processed

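Only 1 of the 10 libraries, the GFP immunoprecipitation of AGP14-rescued cells, was analysed, with its peak table and a BED list of the same 3608 intervals. Per the file headers, the deposited enrichment is a ratio and the height ("max IP") a read pileup signal, which is not normalized. The deposited flag is a score of 3 throughout and was left aside. Per the submitters' processing notes the build is mm9. For the aligner, peak caller, control library and depth, the sources used here give nothing. Gene spans were taken to the nearest kb, so distances hold to about 1 kb. Whether positions count from 0 or 1 is not stated.

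Peaks within 100 kb of a span were counted, ranked and set beside the whole list. Tiles ran from the first to the last peak of each chromosome, and densities used the position of the last peak as length. Wilson and exact Poisson intervals are at the 95% level. The named genes were the 8 of the rule, with every peak in their windows and the nearest outside. The genes and lists were chosen with earlier results of these data known. The quartile and median shares of weak peaks were added after values were seen. Windows around other pluripotency genes were not run, since their mm9 spans were not used here. Membership, merging and neighbour distances were checked on simulated data. Alternatives were other distances, interval overlap, merging, a stricter enrichment and scaling by chromosome. Software was pandas 2.3.3 and SciPy 1.17.1 under Python 3.11.15, with NumPy 2.4.6 and, for plots, matplotlib 3.10.9.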

Additional observations from a re-analysis of the deposited data

How the results depend on the processing

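Of 21 alternatives to 4 counts, 13 stayed within 1.5 times the reported count and 8 did not. The count of 17 member peaks became 5 within 10 kb, 5 within 20 kb and 9 within 50 kb of a span, and 7 when peaks under the list's median enrichment were dropped. The count of 7 genes with a peak became 4 within 10 kb and 4 within 20 kb. Within 50 kb, 1 member was in the upper quartile of enrichment (3 as reported) and 1 in that of height (2 as reported). Fewer peaks by construction are counted under each of these. Klf2 had no peak within 200 kb, where 7 genes again had one. Interval overlap, the BED list by midpoint and merging of peaks closer than 1 kb each gave 17 peaks. Leaving out a replicate was not possible. No paired analysis was possible because only 1 of the 10 libraries was analysed. The precision of single heights and enrichments was not measured, since the read depth is unknown.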

Other observations

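The authors' enrichment carries a factor that differs between chromosomes, taken here as the largest quotient of enrichment and height on each. Each enrichment was divided by it and matched to the nearest fraction in lowest terms. The search allowed denominators up to 60 with a tolerance of 0.001, a limit so wide that meeting it alone says little. The denominator found was 1 in 13 of the 17 members (76.5%) and in 76.2% of all peaks. In the other members it was 2, 3 or 5. By this definition the scaled enrichment cannot exceed the height, and on each chromosome at least 1 peak equals it. For the Esrrb peak 25 kb into the span, the scaled enrichment was at this limit, at 58.0. For the tallest Pou5f1 peak it was 57.0, or 19.5% of the height of 293 reads, and for the most enriched Klf4 peak it was 104.0, or 86.7% of 120 reads. The weakest Klf4 peak had 8.50, or 15.5% of 55 reads, with a denominator of 2, and the distal Pou5f1 peak had 8.80 with a denominator of 5. No control library was analysed, so what a denominator stands for was not tested. In lowest terms a larger one can also cancel, so it cannot be read as a control count.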
